A study of Mus musculus with 9 samples.

Results

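The genes described are the glucocorticoid receptor Nr3c1, 6 genes known as its targets (Klf9, Tsc22d3, Fkbp5, Zbtb16, Cdkn1a and Hif3a) and the metallothioneins Mt1 and Mt2. They were chosen by gene symbol and are 9 of the 54532 genes in the deposited table. Each had 1 row, with a value in every library. Kidney messenger RNA was sequenced in 9 samples, 3 per group, from male C57BL/6J mice aged 4 months. PBA1 to PBA3 came from hindlimb-unloaded mice that received daily intraperitoneal 4-phenylbutyric acid (4-PBA, a chemical chaperone), 100 mg per kg of body weight. HU1 to HU3 came from hindlimb-unloaded mice given vehicle, and GC1 to GC3 from ground controls that were neither unloaded nor treated. Unloading, in which the hind legs bear no weight, models disuse and weightlessness. As the ground controls received no vehicle, unloading and vehicle cannot be told apart in the comparison of HU with GC. Nothing in the labels ties a library to 1 animal, so p-values measure the spread between these samples only.

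Corticosterone, the main glucocorticoid of mice, enters cells and binds the receptor encoded by Nr3c1, which is held ready by HSP90 and its co-chaperones. The bound receptor moves to the nucleus and raises or lowers the transcription of its targets, some of which, such as Fkbp5, feed back on the receptor. In kidney the enzymes encoded by Hsd11b1 and Hsd11b2 regenerate and inactivate the hormone, so that local exposure can differ from the level in blood. Metallothioneins are small cysteine-rich proteins that bind zinc and copper, and their genes respond to metals as well as to glucocorticoids.

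The libraries differed in composition. Mitochondrial transcripts took up 13.7% of reads in PBA2, 15.2% in PBA1 and 67.1% in PBA3, between 63.7% and 79.3% in the HU libraries, and 14.8% in GC2, 18.9% in GC1 and 49.7% in GC3. Total reads ran from 7595631 to 15141784 per library. FPKM are reads per gene, scaled to gene length and to the library. The library factor was the submitters' own, was not described in the sources used here and did not follow total reads. All 10 markers of kidney tubule and glomerulus listed were measured. Their summed FPKM was 456 to 1567 in PBA, 326 to 368 in HU and 1073 to 1306 in GC. Of these 10, 4 fell in HU against GC (limma adjusted p under 0.05), where 4.9% of all genes tested fell. Of the same 10, 2 were at 0 in HU1 and 1 in PBA3. The summed FPKM of 7 fibroblast and pericyte markers was 56.6 in PBA1, 13.7 in PBA2 and 238 in PBA3, against 127 to 278 in HU and 16.3 to 46.8 in GC. All 7 were higher in each HU library than in any GC library, as were 18.3% of all genes tested. Of the 7, Pdgfra alone passed the test, where 5.32% of all genes tested rose. In whole tissue, fewer cells of a type and less RNA per cell cannot be told apart.

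Of the 9 genes, 7 had at least 1 FPKM in at least 3 libraries and were tested with all other such genes (12642). Zbtb16 and Hif3a were below that level and are described apart. On the FPKM scale, which allows for gene length, Mt1 stood in ground controls far above the rest, at 171 ± 17.4 FPKM (SD, n = 3). Mt2 (5.34 ± 1.44 FPKM), Nr3c1 (4.66 ± 0.790), Tsc22d3 (4.07 ± 0.925) and Klf9 (3.42 ± 1.11) followed, each within the spread of its neighbour (SD, n = 3). Fkbp5 (2.19 ± 1.21 FPKM) and Cdkn1a (0.915 ± 0.170 FPKM) came next, and Hif3a (0.0796 ± 0.0737 FPKM) and Zbtb16 (0.0349 ± 0.0522 FPKM) were near the limit of detection (SD, n = 3).

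**Figure D1:**
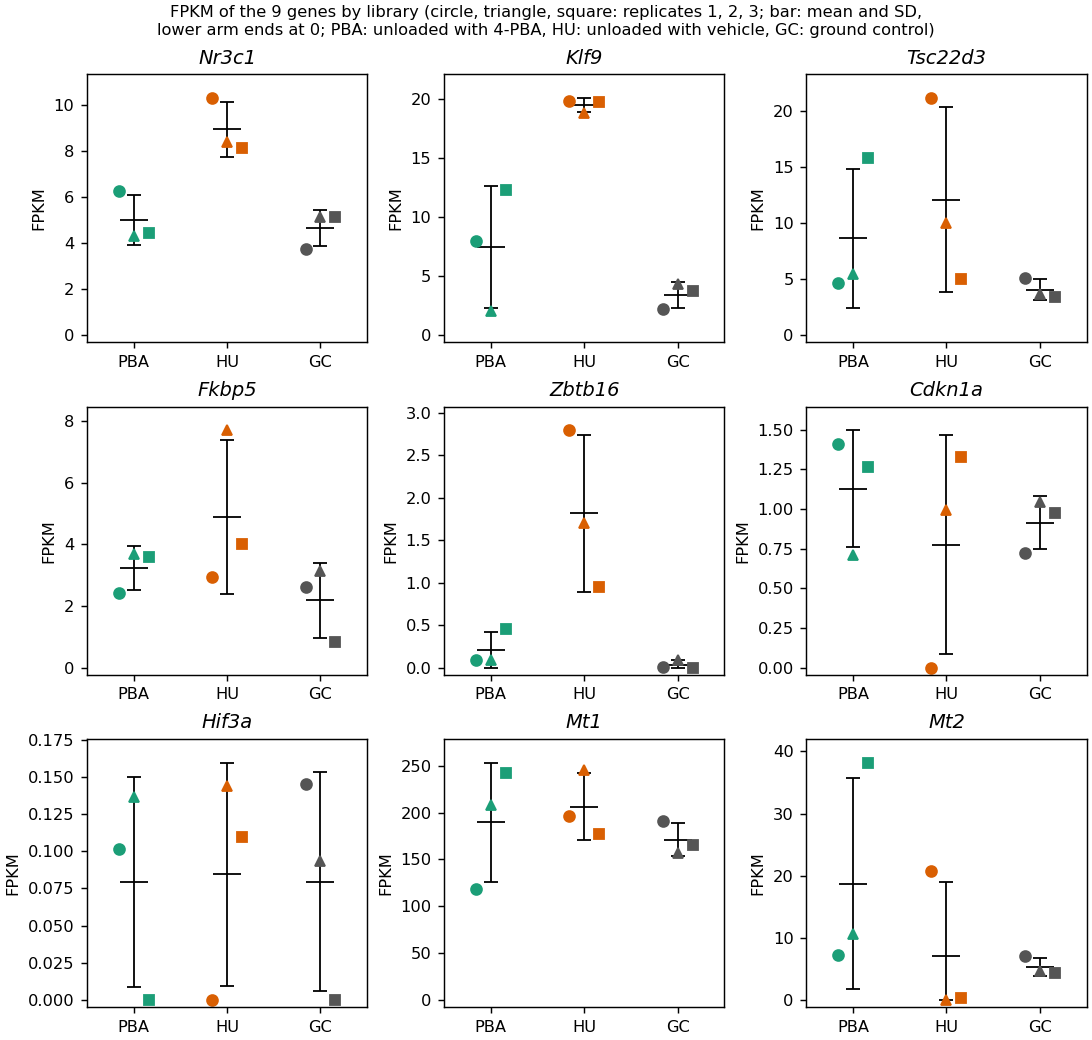
FPKM of the 9 genes in each library, by group (PBA, HU, GC); points are libraries and bars the mean and SD of 3, each panel with its own axis. On this scale the HU libraries lay above every GC library for Nr3c1, Klf9 and Zbtb16, and Mt2 was at 0 in HU2 while Mt1 was not.

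Unloaded mice given vehicle were set against ground controls to ask how the kidney differed after unloading. Klf9 was the single member that passed the test, and it rose 5.70-fold in mean FPKM. Nr3c1 was also higher in every HU library than in any GC library but missed the threshold. Zbtb16 was well above its ground control level in all 3 HU libraries, though too low for the test across genes. Mt1 differed by less than the spread between libraries, and Mt2 was nearly absent from 2 of 3 HU libraries. So 1 of 7 tested members was called, against 10.2% of all genes tested in this comparison (5.32% higher and 4.9% lower). At an unadjusted p under 0.05 there were 4 of 7 members, against 29.8% of all genes. The median log2 difference of those 7 was 0.81, against -0.03 over all genes tested.

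Nr3c1 (ENSMUSG00000024431; mm10 chromosome 18, 39410545 to 39491301, minus strand) encodes the receptor through which glucocorticoids act. It had 10.3, 8.39 and 8.12 FPKM in HU1, HU2 and HU3, against 3.75, 5.12 and 5.12 FPKM in GC1, GC2 and GC3. The groups did not overlap, which was so for 37.7% of all genes tested (18.3% with HU higher, 19.4% with HU lower). On the log2(FPKM + 1) scale, which is used throughout and understates changes of low genes, Nr3c1 differed by 0.81 ± 0.24 (SE; limma adjusted p = 0.0611). It passed with scaling to reads outside the mitochondrial genome (1.09, limma adjusted p = 0.0428) and with limma-voom on recovered reads (0.96, limma adjusted p = 0.0432), and without PBA3 (limma adjusted p = 0.0420). With scaling to total reads it was -0.10 (limma adjusted p = 0.883), where the median of all genes moved to -0.78, so that Nr3c1 lay 0.68 above that median. Over all 19 alternatives the limma adjusted p ran from 0.0420 to 0.883.

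Klf9 (ENSMUSG00000033863; chromosome 19, 23141226 to 23166911, plus strand) encodes a Krüppel-like zinc finger repressor that the receptor induces. It had 19.9, 18.8 and 19.8 FPKM in HU1, HU2 and HU3, against 2.19, 4.34 and 3.72 FPKM in GC1, GC2 and GC3. The HU libraries lay close together and far above all 3 GC libraries. Klf9 rose by 2.25 ± 0.47 on the log2 scale (SE; limma adjusted p = 0.0232), supported by 191 to 438 reads in each HU library. The call was lost without HU3 and without any 1 of the GC libraries (limma adjusted p from 0.0578 to 0.105), and with no filter on low values (0.0780). Over all 19 alternatives it ran from 0.00408 to 0.202. With scaling to total reads the log2 difference was 1.31 (limma adjusted p = 0.0937), or 2.08 above the median of all genes. Klf9 stood at 1.45 with the mitochondrial share as a covariate (limma adjusted p = 0.202).

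Klf9, the sum of the fibroblast and pericyte markers and the mitochondrial share were each higher in every HU library than in any GC library. Klf9 did not follow the mitochondrial share in every library. PBA1, with 15.2% mitochondrial reads, had 7.95 FPKM of Klf9, above each GC library. GC3, with 49.7% mitochondrial reads, had 3.72 FPKM of Klf9, between GC1 and GC2. PBA3, with 67.1%, had 12.3 FPKM, below each HU library. The part of the stromal markers in the Klf9 difference was not tested. No HU library had a low mitochondrial share, so no comparison among libraries of low share was possible.

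Tsc22d3 (ENSMUSG00000031431; chromosome X, 140539528 to 140600659, minus strand) encodes GILZ, the glucocorticoid-induced leucine zipper, which restrains inflammatory signalling. It had 21.2, 10.1 and 5.06 FPKM in HU1, HU2 and HU3, against 5.13, 3.67 and 3.41 FPKM in GC1, GC2 and GC3. HU1 was the highest and HU3 lay just under GC1, so the groups overlapped. Tsc22d3 differed by a log2 of 1.19 ± 0.52 (SE; limma adjusted p = 0.162).

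Fkbp5 (ENSMUSG00000024222; chromosome 17, 28399094 to 28517527, minus strand) encodes the co-chaperone FKBP51, which lowers the affinity of the receptor for its hormone. It had 2.94, 7.70 and 4.02 FPKM in HU1, HU2 and HU3, against 2.62, 3.13 and 0.820 FPKM in GC1, GC2 and GC3. HU2 was the highest and GC3 the lowest, and HU1 lay below GC2. Fkbp5 differed by a log2 of 0.89 ± 0.39 (SE; limma adjusted p = 0.163). The gene AC154912.1 on the opposite strand within the Fkbp5 locus had 0 to 16 reads, against 85 to 800 for Fkbp5. Tsc22d3 and Fkbp5, both much used as markers of receptor activity, had positive differences that did not pass the threshold.

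Zbtb16 (ENSMUSG00000066687; chromosome 9, 48654297 to 48836222, minus strand) encodes the transcription factor PLZF. It had 2.79, 1.70 and 0.949 FPKM in HU1, HU2 and HU3, from 88, 28 and 34 reads. The ground controls had 0.00973, 0.0948 and 0 FPKM in GC1, GC2 and GC3, from 1, 12 and 0 reads, where 3 reads in GC3 would be 0.0519 FPKM. The groups did not overlap. The HU libraries held fewer reads from outside the mitochondrial genome than the GC libraries. They also had the high mitochondrial shares and stromal marker sums given above, whose part in the Zbtb16 value was not tested. The ratio of the mean FPKM was 52.0, a value that rests on 13 reads in the ground controls. Zbtb16 differed by 1.39 on the log2(FPKM + 1) scale, with an exact two-sided permutation p = 0.1, the smallest that 3 against 3 samples allow. In a fit with no filter on low values the limma adjusted p was 0.0817.

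Cdkn1a (ENSMUSG00000023067; chromosome 17, 29090976 to 29100727, plus strand) encodes the cyclin-dependent kinase inhibitor p21, a target of p53 as well as of the receptor. It had 0, 0.995 and 1.33 FPKM in HU1, HU2 and HU3, against 0.723, 1.05 and 0.977 FPKM in GC1, GC2 and GC3. HU1 had 0 reads, which allows up to 0.141 FPKM, and the other HU libraries lay in or above the range of GC. The log2 difference was -0.20 ± 0.35 (SE; limma adjusted p = 0.746) and 0.17 without HU1. Among 17 p53 targets and related inhibitors, 15 were tested and 0 passed in limma. At an unadjusted p under 0.05 there were 2 of 15, against 29.8% of all genes tested. Cdkn1c, encoding the related inhibitor p57, had a log2 difference of -1.18 and Cdkn2b, encoding p15, 1.17, neither past the threshold.

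Hif3a (ENSMUSG00000004328; chromosome 7, 17031507 to 17062427, minus strand) encodes a hypoxia-inducible factor subunit, some forms of which oppose its relatives. It had 0, 0.144 and 0.110 FPKM in HU1, HU2 and HU3 from 0, 3 and 5 reads, against 0.146, 0.0933 and 0 FPKM in GC1, GC2 and GC3 from 19, 15 and 0 reads. No library had more than 21 reads, so only a large difference could have been seen at this depth. None of the 8 hypoxia-inducible factors and regulators listed passed in limma (1 at an unadjusted p under 0.05, against 29.8% of all genes). Epas1, encoding HIF-2 alpha, had a log2 difference of 0.96 and Hif1a of 0.61.

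**Figure D2:**
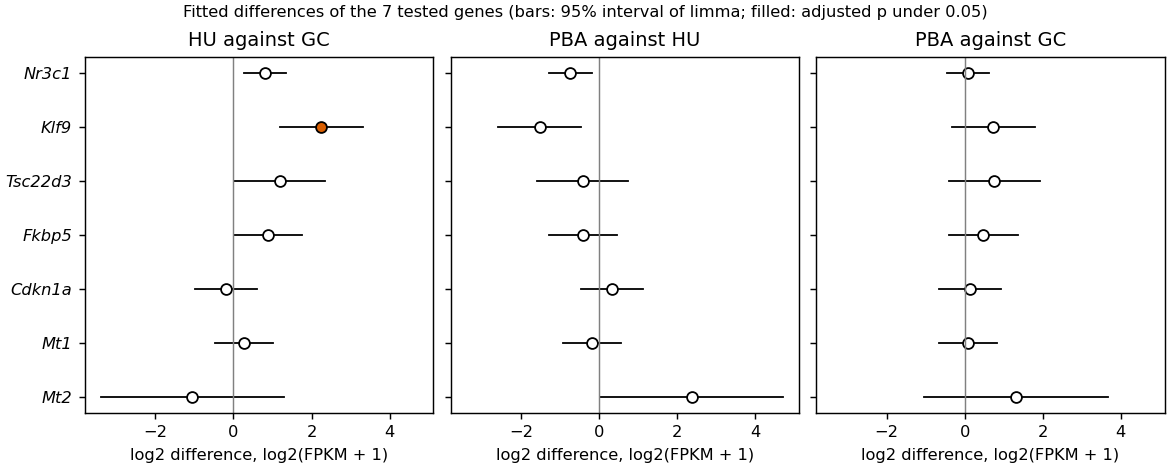
Log2 differences of the 7 tested members, on the log2(FPKM + 1) scale, in each of the 3 comparisons, with the 95% interval of limma; filled points passed an adjusted p of 0.05. Klf9 in HU against GC, at 2.25, is the single filled point, and the widest intervals belong to Mt2.

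The 4 mouse metallothionein genes lie side by side on chromosome 8 in the order Mt4, Mt3, Mt2, Mt1, all on the plus strand. Mt2 (ENSMUSG00000031762; 94172664 to 94173568) and Mt1 (ENSMUSG00000031765; 94179082 to 94180327) are 5513 bases apart. Both are known to carry metal response elements, the sites bound by the zinc sensor MTF1. Their start regions are shown because the neighbours had unlike values. They run from 250 bases before to 50 after the RefSeq start (GRCm38.p6, plus strand), at chr8:94178839-94179138 for Mt1 and chr8:94172368-94172667 for Mt2. Capitals mark the element core, searched as TGCGCNC and TGCACNC on both strands.
Mt1: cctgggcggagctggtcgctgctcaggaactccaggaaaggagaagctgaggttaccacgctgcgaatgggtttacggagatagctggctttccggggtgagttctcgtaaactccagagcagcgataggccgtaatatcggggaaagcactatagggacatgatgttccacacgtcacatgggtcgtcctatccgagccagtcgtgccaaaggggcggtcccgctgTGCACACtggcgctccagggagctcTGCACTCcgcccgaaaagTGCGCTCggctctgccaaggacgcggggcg
Mt2: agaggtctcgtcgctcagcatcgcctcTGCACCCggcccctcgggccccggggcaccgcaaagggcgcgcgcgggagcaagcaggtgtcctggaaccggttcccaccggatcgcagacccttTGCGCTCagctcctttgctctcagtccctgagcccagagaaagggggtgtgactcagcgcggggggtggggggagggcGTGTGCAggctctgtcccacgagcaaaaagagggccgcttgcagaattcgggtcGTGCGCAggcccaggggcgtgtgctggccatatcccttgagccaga
The core was found 3 times in the Mt1 window and 4 times in the Mt2 window, where 25.7% of 32851 mouse start regions of the same length held it at least once and 1.97% held it 3 or more times. The Mt1 matches at bases 3 and 21 and the Mt2 match at base 5 lay after the start used. The letters TATAAA were in neither window. Bases beyond these windows were not searched, so the counts do not cover all elements of Mt1 and Mt2. A match describes the letters and does not show a site in use.

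Mt1 had 196, 246 and 177 FPKM in HU1, HU2 and HU3, against 191, 157 and 166 FPKM in GC1, GC2 and GC3. HU3 lay inside the GC range and the groups overlapped. Mt1 differed by a log2 of 0.26 ± 0.33 (SE; limma adjusted p = 0.634), with a 95% interval from -0.48 to 1.00. With scaling to total reads it was -0.80, close to the median of all genes under that scaling (-0.78).

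Mt2 had 20.8, 0 and 0.251 FPKM in HU1, HU2 and HU3, against 6.99, 4.69 and 4.35 FPKM in GC1, GC2 and GC3. HU1 was above every ground control, while HU2 had 0 reads and HU3 had 1 read, where 3 reads would be 1.64 FPKM in HU2 and 0.752 FPKM in HU3. Mt2 differed by a log2 of -1.05 ± 1.05 (SE; limma adjusted p = 0.528). Without HU1 it was -2.48 (limma adjusted p = 0.0433), so 1 library decided the call, and over all 19 alternatives the limma adjusted p ran from 0.0433 to 0.895. The antisense gene Gm45774 that overlaps Mt2 had 0 to 3 reads in every library. Of 7 liver markers, Alb had 42.6, 9.60 and 4.34 FPKM in HU1, HU2 and HU3, against 1.03 to 1.62 in GC. Fgb (15.6), Ahsg (9.38), Apoa1 (4.06) and Apoa2 (23.1 FPKM) were higher in HU1 than in any ground control. Ttr (16.2) and Serpina1a (9.14 FPKM) were lower in HU1 than in any ground control. The part of liver transcripts in the Mt2, Tsc22d3 and Zbtb16 values of HU1, or in Ddit4 below, was not tested.

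The share of Mt2 among the reads of both genes, which does not depend on how libraries were scaled, ran from 0 to 4.77% within HU. It was 4.77% of 1531 reads in HU1 (exact 95% binomial interval 3.76% to 5.96%), 0 of 953 reads in HU2 (interval up to 0.386%, where 3 reads would be 0.315%), and 0.0667% of 1500 reads in HU3 (interval 0.00169% to 0.371%). It was 1.70%, 1.39% and 1.22% in GC1, GC2 and GC3, with intervals that lay together between 0.814% and 2.11%. The HU2 and HU3 intervals lay below those of each ground control, and the HU1 interval lay above them. The intervals cover counting error only, as reads copied by PCR are not independent molecules. HU2 and HU3 held 953 and 1499 reads of Mt1, and HU1 held 1458.

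**Figure D3:**
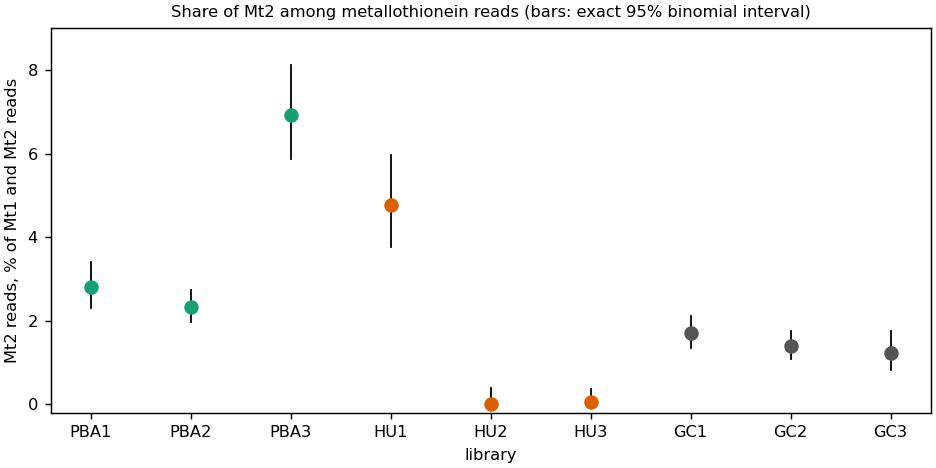
Mt2 reads as a percent of Mt1 and Mt2 reads in each library, with exact 95% binomial intervals that cover counting error only. The ground controls lie between 1.22% and 1.70%, HU2 and HU3 at 0 and 0.0667%, and PBA3 at 6.93%.

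The wider pathway was read from lists of genes with known roles. Among 13 genes of the receptor complex and of ligand supply, all tested, 1 rose and 1 fell in HU against GC. Over all genes tested 5.32% rose and 4.9% fell. Both called genes encode enzymes that act on the hormone. Hsd11b1, which regenerates active corticosterone from its inert 11-keto form, had 103, 102 and 117 FPKM in HU1, HU2 and HU3, against 12.3, 19.5 and 19.4 FPKM in GC1, GC2 and GC3. Hsd11b1 rose by 2.61 ± 0.47 on the log2 scale (SE, limma adjusted p = 0.0153). The fibroblast and pericyte markers were also higher in every HU library than in any GC library. Their part in the Hsd11b1 value was not tested. Hsd11b2, which inactivates corticosterone in the distal nephron, had 2.82, 7.86 and 14.7 FPKM in HU1, HU2 and HU3, against 53.1, 65.0 and 100.5 FPKM in GC1, GC2 and GC3. Hsd11b2 fell by 3.14 on the log2 scale, with an SE of 0.61 (limma adjusted p = 0.0190). Neither group pair overlapped, as for 37.7% of genes. Both calls were lost without GC1 or GC3 (limma adjusted p from 0.0624 to 0.0795), and that of Hsd11b2 without GC2 (0.0603). With the mitochondrial share as a covariate the limma adjusted p was 0.106 for Hsd11b1 and 0.156 for Hsd11b2, with no filter on low values it was 0.0548 and 0.0700, and with scaling to total reads Hsd11b1 had 0.0655. Hsd11b2 is made by cells of the distal nephron and collecting duct. Of the markers of those segments, Slc12a3 fell (log2 difference -3.60, limma adjusted p = 0.00658), while Calb1 (-0.60, limma adjusted p = 0.398), Atp6v1b1 (-0.46, limma adjusted p = 0.521) and Aqp2 (-0.11, limma adjusted p = 0.904) did not pass and their groups overlapped. The part of those cells in the Hsd11b2 value was not tested. Of 7 adrenal cortex markers, Cyp11b2 was at 0 in all 9 libraries. Cyp11b1, Cyp21a1 and Hsd3b1 did not exceed 0.0815 FPKM in any library. The summed FPKM of the 7 was 1.17 to 2.85 in PBA, 0 to 2.28 in HU and 2.00 to 3.56 in GC. In GC2, which had the highest sum, Akr1b7 made up 2.54 and Star 0.599.

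Of 20 other glucocorticoid-induced genes, 19 were tested and 0 passed in limma in HU against GC. At an unadjusted p under 0.05 there were 6 of 19, against 29.8% of all genes tested. The median log2 difference of the 19 was 0.34, against -0.03 for all genes tested. Ddit4, encoding the mTORC1 inhibitor REDD1, had 20.4, 2.01 and 8.82 FPKM in HU1, HU2 and HU3, against 0.849, 2.40 and 1.93 FPKM in GC1, GC2 and GC3 (log2 difference 1.70, limma adjusted p = 0.122). HU2 lay inside the range of the ground controls, and without it the limma adjusted p was 0.0334 (0.0334 to 0.467 over 19 alternatives). Scnn1a, encoding the alpha subunit of the epithelial sodium channel, had a log2 difference of -1.32 (limma adjusted p = 0.0878). The list therefore held values in both directions, 12 above 0 and 7 below.

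**Figure D4:**
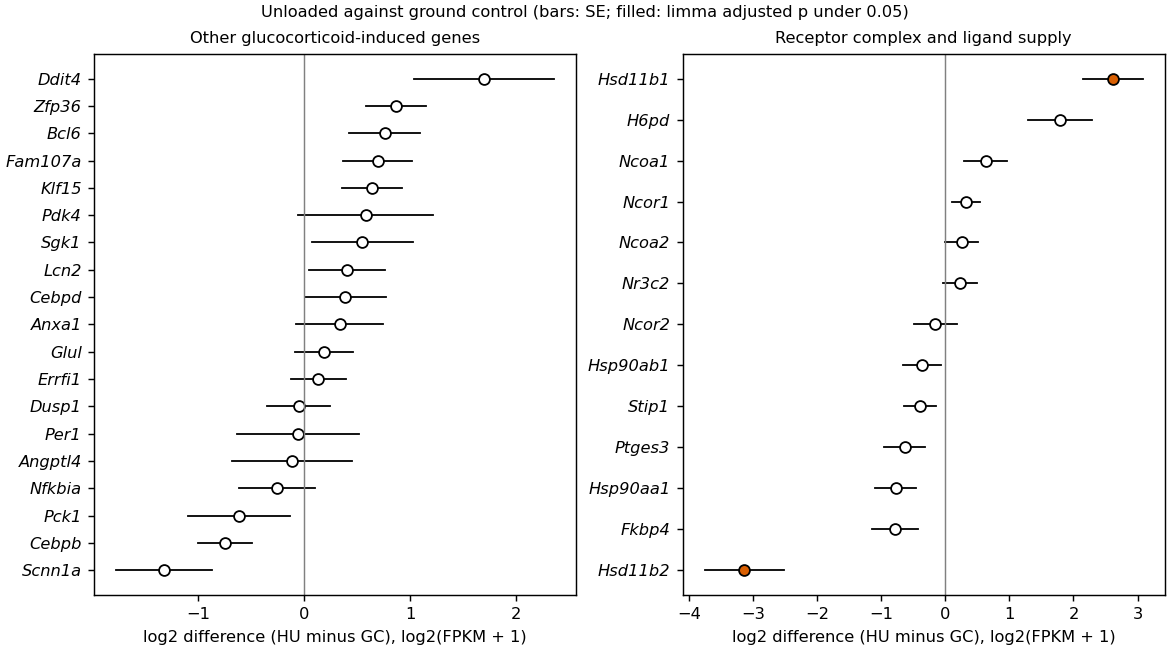
Log2 differences between HU and GC, on the log2(FPKM + 1) scale with SE, for 19 other glucocorticoid-induced genes (left) and 13 genes of the receptor complex and ligand supply (right). Filled points passed an adjusted p of 0.05: these are Hsd11b1 at 2.61 and Hsd11b2 at -3.14, both on the right.

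Among 27 genes of zinc and copper handling, 21 were tested, and 0 rose and 4 fell in HU against GC, where 4.9% of all genes tested fell. Slc39a5, encoding the zinc importer ZIP5, had 0, 1.16 and 1.13 FPKM in HU1, HU2 and HU3, against 6.28, 10.2 and 9.40 FPKM in GC1, GC2 and GC3. Slc39a5 fell by 2.51 on the log2 scale, with an SE of 0.36 (limma adjusted p = 0.00840). The zinc transporters Slc30a6 (-1.75) and Slc30a2 (-1.66) and the copper chaperone Atox1 (-1.37) also fell. Slc39a5 kept its call with any 1 library left out but not with the mitochondrial covariate (limma adjusted p = 0.0746), while Slc30a6 lost it without any 1 of the GC libraries, Slc30a2 without HU1, HU2 or any GC library, and Atox1 without any library but PBA2 or PBA3. These falls ran beside those of the kidney tubule markers given above, whose part was not tested. The zinc sensor Mtf1 itself was too low to be tested. None of the 10 tested paralogs of the members passed in limma (3 at an unadjusted p under 0.05, against 29.8% of all genes).

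Treated unloaded mice were set against unloaded mice given vehicle to ask what 4-PBA altered. None of the 7 tested members passed in limma, and limma-voom likewise called 0. Of all genes tested 2.69% passed (1.16% higher and 1.53% lower). The unadjusted p was under 0.05 for 3 members (Klf9, Nr3c1 and Mt2), against 20.1% of all genes. Of the 7 tested members, Klf9 and Nr3c1 did not overlap between PBA and HU and were lower in PBA. Over all genes tested 20.3% did not overlap, 10.1% with PBA higher and 10.2% with PBA lower. This comparison and that of HU with GC share the HU libraries, where both genes were high, so nothing is read from that count.

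Klf9 had 7.95, 2.10 and 12.3 FPKM in PBA1, PBA2 and PBA3, against 19.9, 18.8 and 19.8 FPKM in HU1, HU2 and HU3. PBA2 was at the level of the lowest ground control, and PBA3 lay between HU and GC. Klf9 differed by a log2 of -1.51 ± 0.47 (SE; limma adjusted p = 0.126). Without PBA3 it was -1.96 (limma adjusted p = 0.0250; 0.0250 to 0.461 over 19 alternatives). The plot of levels against the mitochondrial share shows PBA3 beside the HU libraries in that share and in the summed stromal markers.

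**Figure D5:**
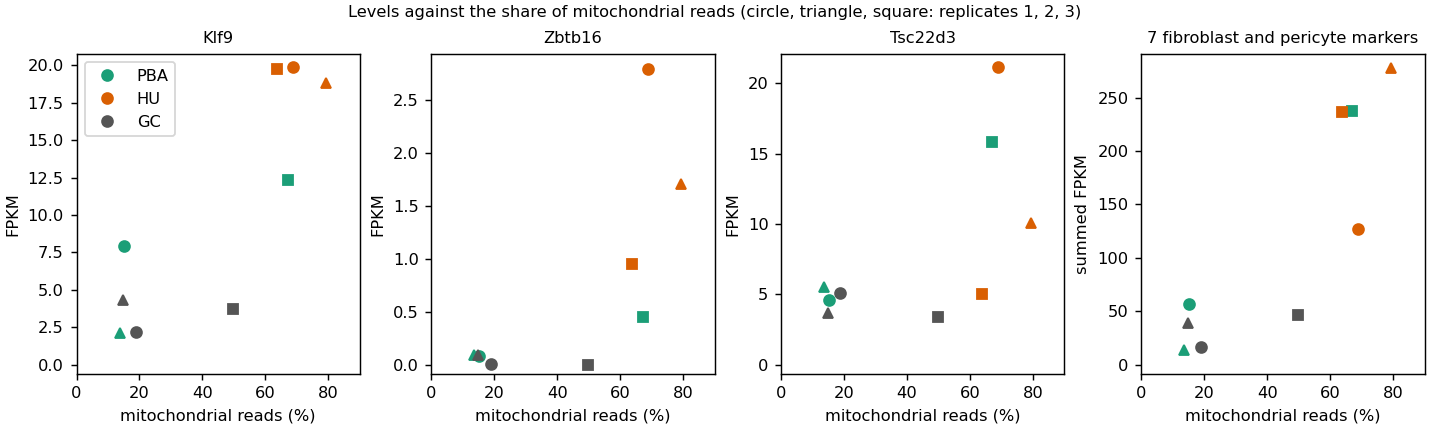
FPKM of Klf9, Zbtb16 and Tsc22d3 and summed FPKM of 7 fibroblast and pericyte markers in each library, against the percent of reads from the mitochondrial genome. PBA3 (67.1% mitochondrial reads) is the highest of the 3 PBA libraries in every panel, and GC3 (49.7%) has Klf9, Zbtb16 and Tsc22d3 values near those of GC1 and GC2.

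Nr3c1 had 6.27, 4.32 and 4.45 FPKM in PBA1, PBA2 and PBA3, against 10.3, 8.39 and 8.12 FPKM in HU1, HU2 and HU3. PBA3 was as low as PBA2 and had the high mitochondrial share given above. Nr3c1 differed by a log2 of -0.73 ± 0.24 (SE; limma adjusted p = 0.141). With scaling to total reads it was 0.13, where the median of all genes moved to 0.71.

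Zbtb16 had 0.0834, 0.0908 and 0.455 FPKM in PBA1, PBA2 and PBA3 from 11, 11 and 15 reads, against 2.79, 1.70 and 0.949 FPKM in HU1, HU2 and HU3. PBA3 was the highest treated library but lay under HU3. Zbtb16 differed by -1.18 on the log2(FPKM + 1) scale (exact two-sided permutation p = 0.1, the smallest possible here).

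Tsc22d3 had 4.63, 5.49 and 15.8 FPKM in PBA1, PBA2 and PBA3, against 21.2, 10.1 and 5.06 FPKM in HU1, HU2 and HU3, so that each group held high and low libraries. Its log2 difference of -0.42 ± 0.52 (SE; limma adjusted p = 0.689) became 0.055 without HU1. Fkbp5 had 2.41, 3.68 and 3.61 FPKM in PBA1, PBA2 and PBA3, against 2.94, 7.70 and 4.02 FPKM in HU1, HU2 and HU3 (log2 difference -0.41 ± 0.39, SE; limma adjusted p = 0.594). Cdkn1a had 1.41, 0.712 and 1.26 FPKM in PBA1, PBA2 and PBA3 (log2 difference 0.34 against HU). For all 3 genes the 95% interval of the difference included 0: -1.59 to 0.74 for Tsc22d3, -1.28 to 0.47 for Fkbp5 and -0.45 to 1.12 for Cdkn1a. Hif3a had 0.101, 0.136 and 0 FPKM in PBA1, PBA2 and PBA3.

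Mt1 had 119, 208 and 242 FPKM in PBA1, PBA2 and PBA3, against 196, 246 and 177 FPKM in HU1, HU2 and HU3 (log2 difference -0.17 ± 0.33, SE; limma adjusted p = 0.810). PBA1 was the lowest of all 9 libraries and PBA3 close to the highest, HU2. Mt2 had 7.29, 10.5 and 38.2 FPKM in PBA1, PBA2 and PBA3, against 20.8, 0 and 0.251 FPKM in HU1, HU2 and HU3. Its log2 difference was 2.37 ± 1.05 (SE; limma adjusted p = 0.244), and 3.80 without HU1 (limma adjusted p = 0.0240; 0.0240 to 0.438 over 19 alternatives). The share of Mt2 among the reads of both genes was 2.82%, 2.33% and 6.93% in PBA1, PBA2 and PBA3 (exact 95% intervals 2.32% to 3.40%, 1.97% to 2.74% and 5.86% to 8.13%). PBA3 had the highest Mt2 level of all libraries. It also had the highest summed FPKM of 7 urothelium markers (165.5) and of 7 adipocyte markers (381). The adipocyte sum was 337 in GC2, which had 4.69 FPKM of Mt2. The part of either marker set in Mt2 was not tested.

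Of the wider lists, 1 of 19 other glucocorticoid-induced genes rose with 4-PBA, where 1.16% of all genes tested rose. It was Cebpb, encoding the transcription factor C/EBP beta, which had 12.1, 12.5 and 18.0 FPKM in PBA1, PBA2 and PBA3, against 5.12, 7.05 and 5.10 FPKM in HU1, HU2 and HU3 (log2 difference 1.16 ± 0.26, SE; limma adjusted p = 0.0470). That call was lost under each alternative but 2, scaling to total reads and leaving out PBA3. Hsd11b1 had 19.0, 14.1 and 58.9 FPKM in PBA1, PBA2 and PBA3, a log2 difference of -2.05 against HU (limma adjusted p = 0.0519). Hsd11b2 had 79.1, 59.3 and 18.7 FPKM in PBA1, PBA2 and PBA3, a log2 difference of 2.49 against HU (limma adjusted p = 0.0647). Without PBA3 both passed, at -2.64 and 3.10. PBA3 had the highest sum of fibroblast and pericyte markers among the PBA libraries. The part of those markers in the Hsd11b1 value was not tested. Of 21 zinc and copper genes 2 rose, against the same 1.16% of all genes tested. They were Slc39a5 (2.44, limma adjusted p = 0.0138) and Slc30a2 (1.76, limma adjusted p = 0.0408). Slc39a5 lost its call without PBA1 or PBA2 (limma adjusted p of 0.0607 and 0.0712), and Slc30a2 without any library but PBA3 or HU3. The kidney tubule and glomerulus markers moved with these genes and with Hsd11b2: all 10 had positive differences (median 0.99), and 2 rose, Slc12a3 (3.15) and Slc34a1 (3.00). Their part was not tested. Of the 13 receptor complex genes, 15 p53 targets, 8 hypoxia-inducible factor genes and 10 paralogs tested, 0 passed in limma. At an unadjusted p under 0.05 there were 2, 1, 0 and 0, against 20.1% of all genes tested.

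Treated unloaded mice were last set against ground controls to ask how far they differed from untreated animals. None of the members passed in limma, 0 of them had an unadjusted p below 0.05, and limma-voom called 0. Of all genes tested 0.0% passed, and 1.31% had an unadjusted p under 0.05. The log2 differences were 0.08 for Nr3c1, 0.73 for Klf9, 0.76 for Tsc22d3, 0.48 for Fkbp5, 0.14 for Cdkn1a, 0.09 for Mt1 and 1.32 for Mt2. Mt2 was the single tested member whose groups did not overlap, with 7.29, 10.5 and 38.2 FPKM in PBA1, PBA2 and PBA3, against 6.99, 4.69 and 4.35 FPKM in GC1, GC2 and GC3, where 8.0% of genes tested did not overlap (4.37% with PBA higher, 3.63% with PBA lower). The other lists had 0 genes past the threshold in limma. At an unadjusted p under 0.05 there were 1 of 19 other glucocorticoid-induced genes, 1 of 15 p53 targets and 5 of 6 tested urothelium markers. Those 5 urothelium markers were higher in each PBA library than in any GC library, as Mt2 was (list median log2 difference 2.43), and their part in the Mt2 value was not tested. The 95% interval of the Mt2 log2 difference ran from -1.03 to 3.66. Klf9 had 12.3 FPKM in PBA3 and 7.95 in PBA1, both above all ground controls, while PBA2 at 2.10 was below them. Its 95% interval, from -0.33 to 1.80, does not show that treated mice and ground controls had the same level.

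The nearest genes in pattern were found as the protein-coding genes with the smallest root mean square (RMS) difference of log2(FPKM + 1), centred on each gene, over all 9 libraries. For Fkbp5 they were Lsm12, Crtap and Ccdc115 (RMS difference 0.235 to 0.244), where Fkbp5 itself varied around its mean by 0.559. For Tsc22d3 they were Ppargc1b, Phf6 and Gm17655 (0.239 to 0.248, against its own 0.784). For Mt1 they were Foxn3, Taf5 and Rpl37 (0.131 to 0.148, against 0.306), and for Mt2 they were Ly6d, Rpl24 and S100a4 (0.742 to 0.898, against 1.62). Mt2 varied most of these genes. Ly6d, Rpl24 and S100a4, picked for their likeness to Mt2, were all at 0 in both HU2 and HU3. For Klf9, named after its values were seen, the nearest were Smoc2, Tcf21 and Ctnnb1 (0.191 to 0.231, against 1.08). Between members, Mt1 and Mt2 differed by 1.64, and the closest pair was Fkbp5 and Mt1 at 0.463, so no member was among the nearest genes of another.

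The start regions of 7 members were found in RefSeq, in 10 windows of 300 bases. The full palindromic receptor element, searched on both strands as AGAACA, any 3 bases and TGTTC, was found in none of these windows, and in 0.0487% of all mouse start regions. Its half-site AGAACA was found in 1 window, the most upstream of the 3 starts of Tsc22d3, and in 19.0% of all start regions. That window is shown because it holds the only receptor half-site among these genes (GRCm38.p6, chrX:140600473-140600772, minus strand, half-site in capitals, written here as its reverse complement).
Tsc22d3: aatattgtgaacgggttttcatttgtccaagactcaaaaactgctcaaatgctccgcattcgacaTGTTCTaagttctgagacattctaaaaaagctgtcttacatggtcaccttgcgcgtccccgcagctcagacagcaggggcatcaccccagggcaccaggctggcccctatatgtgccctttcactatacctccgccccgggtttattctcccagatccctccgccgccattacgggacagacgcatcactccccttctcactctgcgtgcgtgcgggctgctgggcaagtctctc
No match says only that these letters are not in these windows.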

How the data were processed

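Directional paired-end libraries were made from kidney messenger RNA bound to poly-T beads, per the labels' protocols. The submitters' processing notes name CASAVA, cutadapt, HISAT2 and mm10. Their versions, and the tool that counted reads, were not given in the sources used here. A single table of FPKM for 54532 genes was deposited by the authors. Multiplying by gene length and by 1 factor per library turned 100% of values into whole reads (within 0.01), which were used for depth, read shares and limma-voom. How the submitters set that factor was not stated in the sources used here. Before division by gene length, 1 read was 40.0 in PBA1 and 321 in HU2. PBA1 held 14617394 reads, 12390406 of them outside the mitochondrial genome, and HU2 held 7595631 and 1568888. Coordinates are as deposited; the start and end of 7 of 9 members equal GENCODE mouse release 21.

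All 9 samples entered 1 fit of 3 groups in limma 3.58.1 (R 4.3.3), with an empirical Bayes trend, on log2(FPKM + 1), a scale that understates changes of low genes. Genes with at least 1 FPKM in at least 3 libraries were tested (12642), with Benjamini-Hochberg adjusted p under 0.05 over all of them. Fits were also run on simulated data with the same dispersion in all genes and libraries and no difference in composition. That setting is unlike these data, so nothing on these libraries is read from it. No pair of libraries in a group agreed within sampling noise. Members below the filter were compared by an exact two-sided permutation test. The floor was 3 reads per library. Members, lists and tests were chosen with earlier results of these data known. All members were named. Of each other list, up to 4 genes that passed were named, by smallest p, or else the 2 largest differences. Beyond that rule the genes nearest to Klf9, Mtf1, Cyp11b2, Calb1, Atp6v1b1 and Aqp2 were named after their values were seen. So were further liver and adrenal cortex markers. Alternatives covered scaling, pseudocounts of 0.1 and 4, the filter, the samples fitted, a replicate block, limma-voom, the mitochondrial share as a covariate and libraries left out. Promoters came from RefSeq (GRCm38.p6, 7 of 9 members matched). Figures used Python 3.11.15 and matplotlib 3.10.9.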

Additional observations from a re-analysis of the deposited data

How the results depend on the processing

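Of 405 recomputed log2 differences of members, 373 kept their direction and side of the threshold, 7 lost a call, 7 gained one and 18 changed sign; of 627 for other named genes, 533, 75, 11 and 8 did so. The 7 lost calls all belong to Klf9 in HU against GC. The 373 overstate stability, as some values could not move. No gene passed in PBA against GC under any setting. Dropping the filter, the replicate block, fitting only the 6 libraries compared and leaving out a library of the third group kept each log2 difference unchanged. The count of 1292 genes (672 higher, 620 lower) in HU against GC became 2339 (303 higher, 2036 lower) with scaling to total reads, 238 with no filter and 99 with the mitochondrial covariate, and ran from 69 (without GC1) to 2360 (without PBA3) with 1 library left out; scaling to reads outside the mitochondrial genome gave 848 higher and 468 lower. The 1 member called became 0 under those first 3 settings, 2 with scaling to reads outside the mitochondrial genome or limma-voom, and 0 to 2 with 1 library left out. In PBA against HU the 340 genes became 722 with scaling to total reads, 145 with a pseudocount of 0.1, 17 with no filter, 17 with only the 6 libraries compared, 121 with the covariate, 1118 without both PBA3 and GC3, and 36 to 1320 with 1 library left out; members called were 1 without both PBA3 and GC3 and 0 to 1 with 1 left out. A replicate block gave 904, 137 and 0 genes in the 3 comparisons and 1, 0 and 0 members; same-numbered libraries did not deviate together (correlations of -0.196 to 0.288, 2 of 9 over 0.1), so the numbers are not taken as a pairing. The cause of these shifts was not tested.

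Changes of sign with scaling to total reads were in HU against GC Nr3c1 (-0.10), Mt1 (-0.80), Epas1 (-0.054) and Hif1a (-0.27), and in PBA against HU Nr3c1 (0.13), Fkbp5 (0.38), Tsc22d3 (0.42), Mt1 (0.81), Cdkn1b (0.093), Egln2 (0.42), Gadd45a (0.12) and Hif1a (0.35). With the covariate they were Mt1 in HU against GC (-0.12) and Tsc22d3 (0.30) and Mt1 (0.17) in PBA against HU. With 1 library left out, signs changed in HU against GC for Cdkn1a (-0.44 to 0.17), in PBA against HU for Tsc22d3 (-0.92 to 0.055), Mt1 (-0.38 to 0.13), Cdkn1a (-0.033 to 0.58) and Hif1a (-0.97 to 0.061), and in PBA against GC for Nr3c1 (-0.064 to 0.16) and Mt1 (-0.12 to 0.39). Without both PBA3 and GC3 they were Mt1 (-0.14) and Hsd11b2 (0.22) in PBA against GC. The HU libraries and PBA3 held the fewest reads from outside the mitochondrial genome, which limits the precision of Zbtb16, Cdkn1a, Hif3a and Mt2.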
